A study of Mus musculus with 12 samples.

Results

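The Hedgehog receptors, co-receptors and GLI factors are 9 genes chosen by symbol among the 25093 genes of the count table. No measured value entered the rule, but earlier results of these data were known when the genes were chosen. They are the receptor *Ptch1*, the transducer *Smo*, the decoy receptor *Hhip*, the co-receptors *Boc*, *Cdon* and *Gas1*, and the transcription factors *Gli1*, *Gli2* and *Gli3*. In freshly sorted quiescent satellite cells (QSCs) edgeR called 0 of the 9 between *Gli3*Δ/Δ and *Gli3*+/+ libraries, against 0.351% of all genes. A call needed an adjusted p below 0.05 and a 1.2-fold difference. The Wald test of DESeq2, the tool the authors used, called 1, *Gli1* (adjusted p = 0.0339), against 1.64% of genes tested. *Gli1* and *Hhip* were counted higher in each *Gli3*Δ/Δ library than in every *Gli3*+/+ library, at 1.43-fold and 1.51-fold. The same held for 7.69% of the 11168 genes of at least 5 CPM (scaled counts, defined below). The other 7 genes overlapped between the groups.

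Hedgehog proteins are secreted ligands that bind PTCH1 at the cell surface. Without ligand PTCH1 keeps SMO inactive, and GLI2 and above all GLI3 are phosphorylated by protein kinase A at the primary cilium and cut to repressor forms. With ligand SMO enters the cilium and the full-length GLI proteins act as activators of target genes, which include *Gli1*, *Ptch1* and *Hhip* themselves. Satellite cells are the stem cells of skeletal muscle, and when quiescent they often carry a primary cilium.

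The study sequenced polyadenylated RNA of satellite cells in 12 libraries, from uninjured muscles (QSCs) and from muscles injured 3 days earlier (ASCs, activated satellite cells), in control and *Gli3* conditional knockout mice. All mice, controls included, were aged 3 to 4 months, had a mixed 129SV and C57BL/6 background, carried *Pax7*-CreERT2/+ and the R26R-YFP reporter, and received tamoxifen. The controls were *Gli3*+/+. The knockouts were *Gli3*fl/fl, in which the Cre recombinase can remove exon 8, and are called *Gli3*Δ/Δ after tamoxifen. The recombinase sits behind the *Pax7* stop codon and is thus made in cells that express *Pax7*, so other cell types of the muscle keep their *Gli3* alleles. QSCs were sorted from hindlimb muscle as α7-integrin+ and CD34+ cells negative for CD31, CD45, SCA1 and CD11b, a gate that does not include YFP. Each QSC library combined cells of 2 to 3 mice, and there were 3 libraries per genotype. In the deposited counts the ASC columns carry numbers that match no sample label and were not used. Every test is therefore between the 3 *Gli3*Δ/Δ and the 3 *Gli3*+/+ QSC libraries.

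The allele itself is shown because it decides what the *Gli3* count can and cannot tell. *Gli3* (ENSMUSG00000021318.15) lies on the plus strand of GRCm38 at chr13:15463235-15730026, and the principal transcript in GENCODE vM21 has 15 exons. Exon 8, taken to be numbered as in that transcript, is coding, spans chr13:15659962-15660175 on the plus strand and has 214 bases. Exon 8 of *Gli3* reads as follows.

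Gli3 exon 8: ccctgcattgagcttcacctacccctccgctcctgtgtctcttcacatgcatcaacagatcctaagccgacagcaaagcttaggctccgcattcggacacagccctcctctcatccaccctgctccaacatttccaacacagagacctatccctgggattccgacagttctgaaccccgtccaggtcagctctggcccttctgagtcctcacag

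A length of 214 bases leaves a remainder of 1 when divided by 3, so a transcript joined from exon 7 to exon 9 changes reading frame. The next sequence starts with the last 30 bases of exon 7 and runs into exon 9, with the in-frame stop codon that the shifted frame meets in capitals.

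Gli3 exon 7 joined to exon 9: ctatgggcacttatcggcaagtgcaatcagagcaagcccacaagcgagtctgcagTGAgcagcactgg

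In this annotation the full reading frame has 1583 codons, of which 342 lie before exon 8, and the joined frame ends after 351 codons. Exon 8 makes up 2.62% of the 8170 bases of the transcript, and 3 of the 4 annotated transcripts of *Gli3* hold it. The deposited counts are per gene, so reads from a transcript without exon 8 are counted as *Gli3* like those with it. The gene count is therefore no direct check of the deletion, and whether exon 8 was lost in these libraries was not tested here. The paper reports checking the excision in QSCs by RT-qPCR of *Gli3*. In its RNA sequencing *Gli3* was significantly lower in *Gli3*Δ/Δ than in *Gli3*+/+ ASCs.

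*Gli3* was counted at 11.2, 9.71 and 9.75 CPM in *Gli3*+/+ replicates 1, 2 and 3 and at 9.54, 10.5 and 6.25 CPM in *Gli3*Δ/Δ replicates 1, 2 and 3. CPM are estimated counts scaled by the size of each library and edgeR's TMM factor. The groups overlap, and only *Gli3*Δ/Δ replicate 3 lies well under the other 5 libraries. The mean was 10.2 ± 0.864 CPM in *Gli3*+/+ and 8.77 ± 2.23 CPM in *Gli3*Δ/Δ libraries (SD, n = 3 each). The log2 fold change of *Gli3*Δ/Δ over *Gli3*+/+ was −0.22 with a standard error of 0.22 (95% interval −0.72 to 0.28; adjusted p = 0.916, edgeR's quasi-likelihood test). Without *Gli3*Δ/Δ replicate 3 it was −0.03, and without *Gli3*+/+ replicate 3 it was −0.25. *Gli3* rests on 318 to 704 counts per library, the fewest of the 9 genes, and its exons overlap those of *Gm6556* on the opposite strand.

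The 6 QSC libraries held 39556784 to 65750131 estimated counts. *Gli3*+/+ replicate 3 stands apart from the others. Across the 11168 genes with a mean of at least 5 CPM, its log2(CPM + 1) correlated with those of the other *Gli3*+/+ libraries at Pearson's r of 0.9527 and 0.9547, against 0.9802 between these and 0.9748 to 0.9823 among *Gli3*Δ/Δ libraries. In it the summed markers of satellite cells, fibro-adipogenic cells and mural cells were the highest of the 6 libraries. Single genes weigh heavily in these sums. *Sdc4* was at 2714 CPM there (891 to 1401 CPM in the others), *Col3a1* at 3624 (1952 to 3422) and *Acta2* at 347 (101 to 171). *Myf5* (301 CPM), *Calcr* (129.5 CPM) and *Pdgfra* (1.65 CPM) were instead at their lowest of the 6 libraries. Of the 9 Hedgehog genes, 6 had their lowest *Gli3*+/+ value in that library. Values without that library are given beside the results it enters. *Pax7*, *Myf5*, *Cdh15* and the other 7 satellite cell markers were detected in all libraries, with sums of 6862 to 8914 CPM in *Gli3*+/+ and 6815 to 7149.6 CPM in *Gli3*Δ/Δ libraries, and no marker of any list was called. The leukocyte markers summed to between 7.43 and 13.4 CPM, with *Adgre1* and *Cd3e* below 1 CPM in every library. Of the 8 marker lists only that of endothelial cells had sums that did not overlap, at 181 to 257 CPM in *Gli3*+/+ and 155 to 177 CPM in *Gli3*Δ/Δ libraries. Of its 7 markers 1, *Emcn*, had every *Gli3*Δ/Δ library below, against 6.57% of all genes. *Tek*, the highest of them, overlapped (log2 fold change −0.22), *Pecam1* had 0.01 and the rest ran from −0.87 to −0.50. On leaving out *Gli3*+/+ replicate 3, the leukocyte sums (9.92 to 13.4 against 7.43 to 9.62 CPM) and the fibro-adipogenic sums (2505 to 3169 against 3926 to 4171 CPM) did not overlap either. The 5 markers of activated and differentiating myogenic cells summed to 129.7 to 179 CPM in *Gli3*+/+ and 140.0 to 162 CPM in *Gli3*Δ/Δ libraries, and 2 of them lay higher in every *Gli3*Δ/Δ library, against 6.39% of all genes. These were *Myog* (4.94, 2.61 and 6.31 against 14.2, 9.67 and 9.05 CPM, log2 fold change 1.25, adjusted p = 0.297 in edgeR) and *Myh3* (1.51, 0.252 and 0.371 against 2.16, 2.12 and 4.58 CPM, log2 fold change 2.08, adjusted p = 0.446 in edgeR). The groups overlapped for the rest of that list. *Myod1*, which made up most of the sum, had a log2 fold change of −0.14, *Mki67* one of 0.20 and *Ckm* one of 0.16. The part of these cell types and states in the values of the Hedgehog genes was not tested. In bulk RNA fewer cells of a type and less RNA per cell cannot be told apart.

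The 9 genes spanned a wide range of levels in *Gli3*+/+ QSCs. Levels of different genes are compared as CPM per kilobase of annotated exons. The co-receptor *Gas1*, a membrane-anchored protein named for its rise in growth-arrested cells, stood at the top with 506, 532 and 395 CPM per kilobase in *Gli3*+/+ replicates 1 to 3 (478 ± 72.6, SD, n = 3). This mean lies above that of 99.6% of protein-coding genes in these libraries and is 448-fold that of *Gli3*. *Cdon*, a co-receptor of the immunoglobulin superfamily that is also known to promote myogenic differentiation, followed at 109, 81.5 and 80.1 CPM per kilobase, above 98% of protein-coding genes. Its relative *Boc* reached 17.6, 20.6 and 27.6 CPM per kilobase. The co-receptors thus took the top 3 places, with no overlap between *Gas1*, *Cdon* and *Boc*.

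The transducer *Smo*, at 20.8, 16.6 and 15.3 CPM per kilobase in *Gli3*+/+ replicates 1 to 3, overlapped with *Boc*. *Gli2*, the main activator among the GLI proteins, lay under *Smo* at 14.2, 13.9 and 11.3 CPM per kilobase. *Gli1*, an activator that needs no processing, was at 8.81, 9.23 and 9.43 CPM per kilobase and overlapped with the receptor *Ptch1* at 8.10, 10.5 and 5.68. *Hhip*, which binds ligand without passing the signal on, was at 3.78, 4.73 and 3.50 CPM per kilobase. *Gli3* came last at 1.17, 1.01 and 1.02 CPM per kilobase, a mean above 35.7% of protein-coding genes. All neighbours in the order other than *Boc* and *Smo*, and *Gli1* and *Ptch1*, had ranges over the 3 *Gli3*+/+ libraries that did not overlap. The order of the 9 means was the same in *Gli3*Δ/Δ QSCs, where *Smo* and *Gli2*, and *Gli2* and *Gli1*, overlapped as well as *Boc* and *Smo*. With *Gli3*+/+ replicate 3 left out, *Ptch1* passed *Gli1* (9.32 against 9.02 CPM per kilobase) and the other 7 places stayed. Scaled to the longest transcript in place of all exons, *Smo* passed *Boc*.

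**Figure D1:**
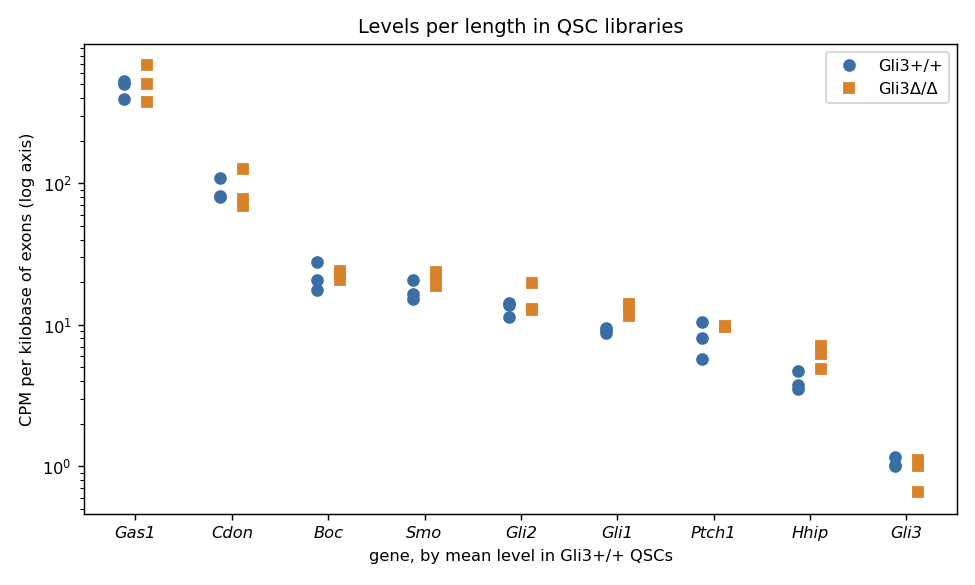
Level of each gene in CPM per kilobase of exons on a log axis, ordered by the mean in *Gli3*+/+ QSCs, with 1 point per library (circles *Gli3*+/+, squares *Gli3*Δ/Δ). *Gas1* lies between 376 and 683 in all 6 libraries and *Gli3* between 0.652 and 1.17, and the neighbours *Boc* and *Smo* overlap.

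On the side that meets the ligand, *Gas1* made up 75.5% to 86.2% of the summed level per kilobase of *Ptch1*, *Hhip*, *Boc*, *Cdon* and *Gas1* in the 6 libraries. *Cdon* held 8.81% to 18.8% of that sum, *Boc* 2.73% to 5.38%, *Ptch1* 1.11% to 1.99% and *Hhip* 0.587% to 1.28%. Without *Gli3*+/+ replicate 3 the range of *Boc* was 2.73% to 4.2% and that of *Ptch1* 1.23% to 1.99%, and the others were the same. These are shares of RNA and not of protein. Among the GLI factors, *Gli2* exceeded *Gli3* in every library, with ratios per kilobase of 12.1, 13.8 and 11.1 in *Gli3*+/+ and 12.8, 17.9 and 19.7 in *Gli3*Δ/Δ replicates 1 to 3.

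Between the genotypes, edgeR called 0 of the 9 genes, where a call needed an adjusted p (quasi-likelihood test, Benjamini-Hochberg) below 0.05 together with a 1.2-fold difference, against 0.351% of the 25093 genes tested (88 genes, of which 47 were higher and 41 lower in *Gli3*Δ/Δ). At an unadjusted p under 0.05 the count was 2 of 9, *Gli1* and *Hhip*, against 7.42% of the genes of at least 5 CPM, a level that all 9 reach. Limma-voom called 0 of the 9 and DESeq2 called 1, *Gli1*, against 1.64% of the genes that DESeq2 tested. The log2 fold change was above 0 for 8 of the 9 genes and below 0 for *Gli3*, with a median of 0.20. Over all genes of at least 5 CPM it was above 0 for 48.6% with a median of −0.01. *Gli1* and *Hhip* were the 2 genes of the 9 with every *Gli3*Δ/Δ library above every *Gli3*+/+ library, which holds for 7.69% of genes of at least 5 CPM. The reverse held for 0 of the 9 and for 5.46% of those genes. On leaving out *Gli3*+/+ replicate 3, a comparison of 3 with 2 libraries, *Gli1* and *Hhip* were still the 2 without overlap, and the share of genes above was then 18.4%.

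*Gli1*, the target gene most often read as a sign of GLI activity, was counted at 44, 46.1 and 47.1 CPM in *Gli3*+/+ and at 58, 70.5 and 67.8 CPM in *Gli3*Δ/Δ replicates 1 to 3. The *Gli3*+/+ libraries lie close together, at a coefficient of variation of 3.41% where the median gene of at least 5 CPM has 14.9%, and all *Gli3*Δ/Δ libraries lie above them. The means were 45.7 ± 1.56 and 65.4 ± 6.61 CPM (SD, n = 3 each). The log2 fold change was 0.52 with a standard error of 0.13, or 1.43-fold (95% interval 1.17 to 1.76). Its p was 0.00336 before and 0.263 after adjustment over all genes in edgeR, so *Gli1* was not called. In DESeq2 the log2 fold change was also 0.52 and the adjusted p 0.0339, which is past the threshold, and over the 12 alternative settings the adjusted p ran from 0.0339 to 0.738. With *Gli3*+/+ replicate 3 left out, the log2 fold change was 0.54 (adjusted p = 0.215, edgeR). *Gli1* lies on the minus strand at chr10:127329882-127341974, and exons of *Arhgap9* and *Gm47200* overlap it on the opposite strand.

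*Gli1* is also known to mark fibroblast-like cells of muscle, so the markers of fibro-adipogenic cells are given beside it and *Hhip*. The 8 markers summed to 3169, 2505 and 4514 CPM in *Gli3*+/+ and to 3926, 4079 and 4171 CPM in *Gli3*Δ/Δ replicates 1 to 3, most of it *Col3a1*. Without *Gli3*+/+ replicate 3 every *Gli3*Δ/Δ sum lies above the *Gli3*+/+ sums. None of the 8 was at 0 or called. *Dpt* had all *Gli3*Δ/Δ libraries above (log2 fold change 0.26) and *Pi16* all below (−1.08), so 1 of 8 each way, against 6.39% and 6.57% of all genes. *Dcn* had a log2 fold change of 0.35 and *Col3a1* one of 0.30, while *Col1a1*, *Ly6a* and *Lum* had −0.61, −0.50 and −0.20. *Pdgfra*, the defining receptor of these cells, had −0.32 and was at 3.8, 1.73 and 1.65 CPM in *Gli3*+/+ and at 1.91, 1.82 and 1.99 CPM in *Gli3*Δ/Δ replicates 1 to 3. The sum was highest in *Gli3*+/+ replicate 3, where *Gli1* was at 47.1 CPM and *Hhip* at 31.7 CPM, under all *Gli3*Δ/Δ libraries. The part of these cells in the *Gli1* and *Hhip* values was not tested.

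*Hhip*, at chr8:79965851-80058006, is induced by Hedgehog signaling and sequesters the ligand. It was counted at 34.3, 42.9 and 31.7 CPM in *Gli3*+/+ and at 56.8, 44.1 and 64 CPM in *Gli3*Δ/Δ replicates 1 to 3. The groups do not overlap, but *Gli3*+/+ replicate 2 and *Gli3*Δ/Δ replicate 2 lie next to each other. The means were 36.3 ± 5.86 and 55 ± 10.1 CPM (SD, n = 3 each). Its log2 fold change of 0.60 with a standard error of 0.18 was the largest of the 9 and amounts to 1.51-fold (95% interval 1.14 to 2.01). The adjusted p was 0.424 in edgeR, and it ran from 0.159 to 0.954 over the 12 alternative settings, so *Hhip* was called in none of them. With 1 library left out the log2 fold change lay between 0.47 and 0.74, and without *Gli3*+/+ replicate 3 it was 0.51.

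**Figure D2:**
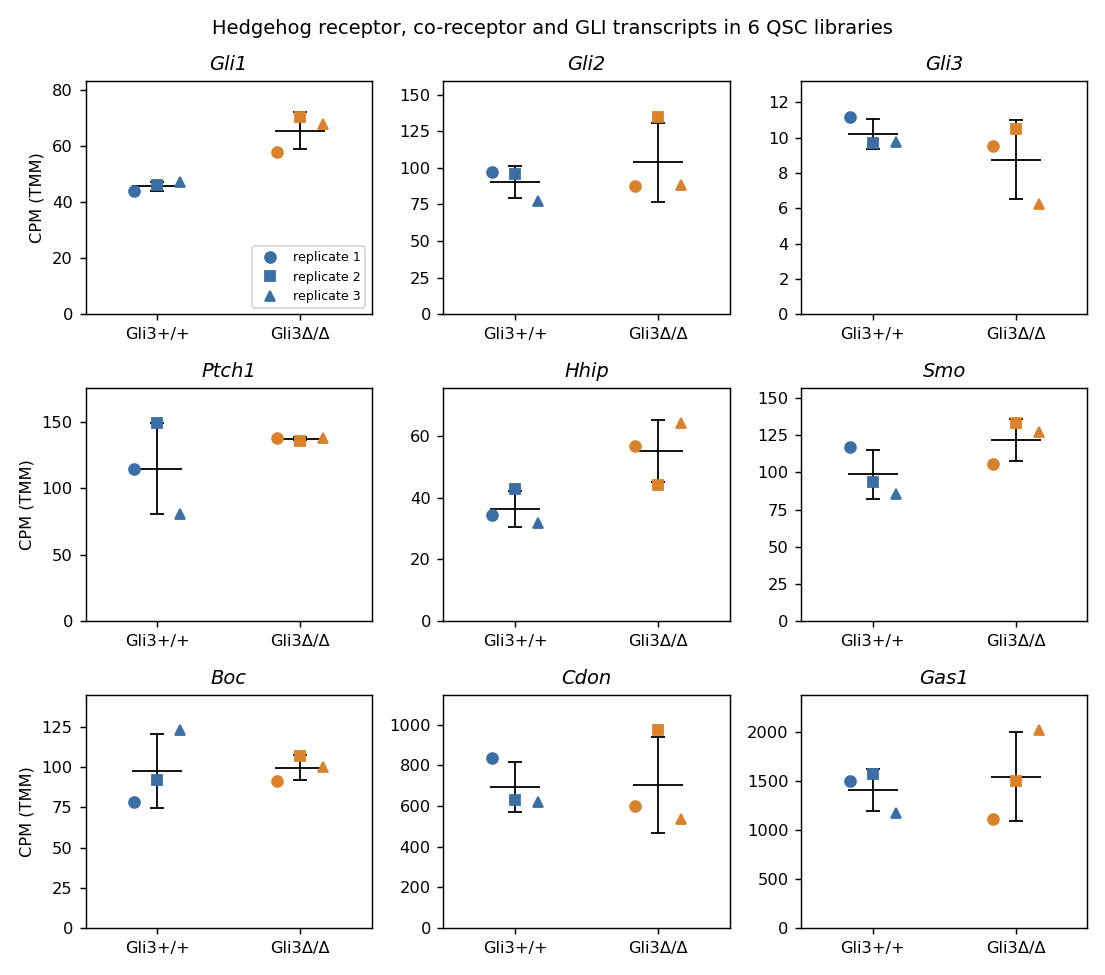
CPM of each gene in the 6 QSC libraries by genotype, with the mean and SD as bars (n = 3) and the replicate number as the symbol. All *Gli3*Δ/Δ points lie above the *Gli3*+/+ points for *Gli1* and *Hhip*, and the groups overlap for the other 7 genes.

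*Ptch1*, the ligand receptor and like *Hhip* a target that feeds back on the signal, lies at chr13:63508328-63573598. It was counted at 115, 149 and 80.6 CPM in *Gli3*+/+ and at 138, 136 and 138 CPM in *Gli3*Δ/Δ replicates 1 to 3. The *Gli3*Δ/Δ libraries differ by little (coefficient of variation 0.94%), while the *Gli3*+/+ libraries spread on both sides of them (30%). For *Ptch1* the log2 fold change was 0.26 with a standard error of 0.21 (95% interval −0.21 to 0.73; adjusted p = 0.895, edgeR). Single controls decide its size. It was 0.50 without *Gli3*+/+ replicate 2 (unadjusted p = 0.0284, adjusted p = 0.652, edgeR) and 0.06 without *Gli3*+/+ replicate 3.

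*Smo*, the transducer held back by PTCH1, lies at chr6:29735503-29761365. It was counted at 117, 93.5 and 85.7 CPM in *Gli3*+/+ and at 106, 133 and 127 CPM in *Gli3*Δ/Δ replicates 1 to 3. Only *Gli3*+/+ replicate 1 reaches into the range of the *Gli3*Δ/Δ libraries. For *Smo* the log2 fold change was 0.30 with a standard error of 0.16 (95% interval −0.06 to 0.67; adjusted p = 0.787, edgeR). Without *Gli3*+/+ replicate 1 it was 0.44 (unadjusted p = 0.0303, adjusted p = 0.634, edgeR) and without *Gli3*+/+ replicate 3 it was 0.21. Some reads of *Ptch1* and *Smo* were shared out by salmon with transcripts of other genes, which were not identified. Their estimates per gene were not whole numbers, within a tolerance of 0.02, in 5 and 6 of the 6 libraries. Sharing among transcripts of the same gene would leave whole sums. The processed pseudogene *Gm13717* lies within *Smo*. The other 7 genes had whole counts throughout.

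*Gli2*, at chr1:118834132-119053619, was counted at 97.5, 95.7 and 77.6 CPM in *Gli3*+/+ and at 87.7, 135 and 88.5 CPM in *Gli3*Δ/Δ replicates 1 to 3. The *Gli3*Δ/Δ replicate 2 alone lies above the *Gli3*+/+ range. For *Gli2* the log2 fold change was 0.20 with a standard error of 0.19 (95% interval −0.24 to 0.64; adjusted p = 0.914, edgeR), and without *Gli3*Δ/Δ replicate 2 it was −0.03. On leaving out *Gli3*+/+ replicate 3, it was 0.10.

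The co-receptors, which help PTCH1 to bind ligand, had the log2 fold changes nearest to 0. *Boc*, at chr16:44485049-44558897, was counted at 78.2, 91.9 and 123 CPM in *Gli3*+/+ and at 91.7, 107 and 100.4 CPM in *Gli3*Δ/Δ replicates 1 to 3. *Cdon*, at chr9:35421128-35507652, was counted at 837, 629 and 618 CPM in *Gli3*+/+ and at 601, 973 and 538 CPM in *Gli3*Δ/Δ replicates 1 to 3. In both genes the groups overlap widely, and the highest *Boc* value is that of *Gli3*+/+ replicate 3 while the highest *Cdon* value is that of *Gli3*Δ/Δ replicate 2. *Gas1*, at chr13:60174405-60177365, was counted at 1498, 1575 and 1171 CPM in *Gli3*+/+ and at 1113, 1503 and 2022 CPM in *Gli3*Δ/Δ replicates 1 to 3. The *Gli3*Δ/Δ libraries of *Gas1* hold both the lowest and the highest value of the 6.

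The log2 fold change of *Boc* was 0.03 (95% interval −0.37 to 0.43; adjusted p = 0.999, edgeR). That of *Cdon* was 0.02 (−0.52 to 0.55; adjusted p = 1, edgeR) and that of *Gas1* 0.13 (−0.38 to 0.63; adjusted p = 0.956, edgeR). With *Gli3*+/+ replicate 3 left out, the values were 0.23, −0.06 and 0.01. The sign of each turned when 1 library was left out, with lows of −0.11 for *Boc* without *Gli3*+/+ replicate 1, −0.29 for *Cdon* without *Gli3*Δ/Δ replicate 2 and −0.11 for *Gas1* without *Gli3*Δ/Δ replicate 3. The intervals are wide, and that of *Boc* alone among the 3 ends below the 0.52 measured for *Gli1*.

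**Figure D3:**
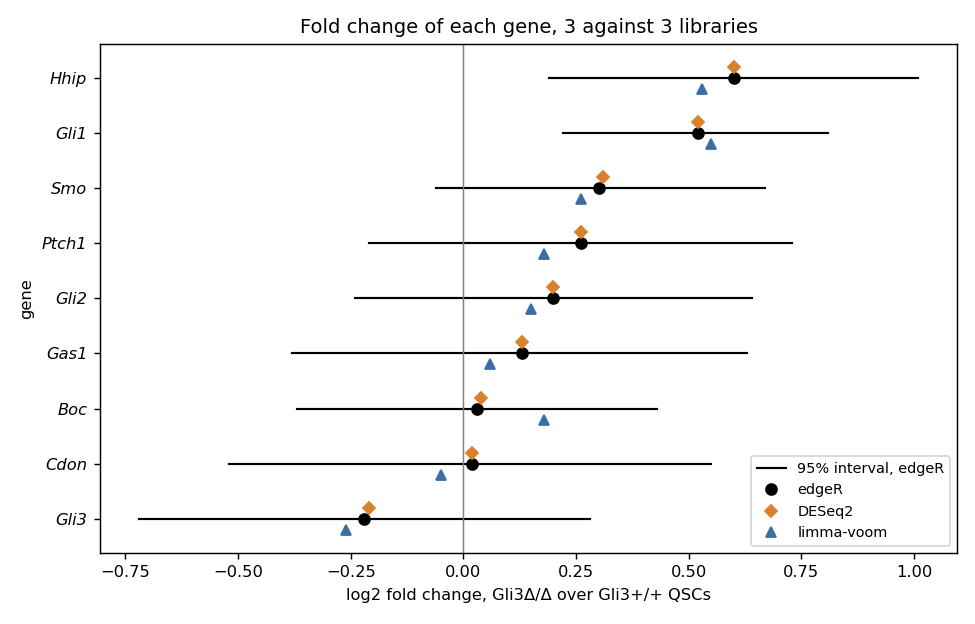
Log2 fold change of each gene in *Gli3*Δ/Δ over *Gli3*+/+ QSCs (x axis), with edgeR's estimate and 95% interval and the estimates of DESeq2 and limma-voom. The edgeR intervals of *Hhip* (0.19 to 1.01) and *Gli1* (0.22 to 0.81) lie above 0, and those of the other 7 genes include 0.

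**Figure D4:**
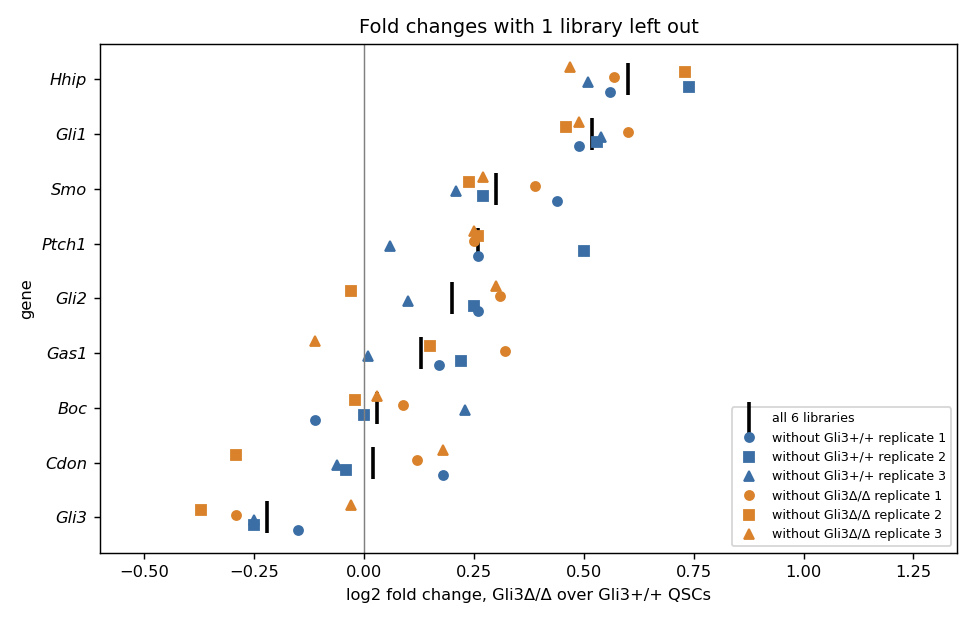
Log2 fold change of each gene (x axis) from edgeR with all 6 QSC libraries (vertical bar) and with each library left out in turn (symbols named in the legend). *Hhip* stays between 0.47 and 0.74 and *Gli1* between 0.46 and 0.60, whereas *Cdon* runs from −0.29 to 0.18.

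No single *Gli3*Δ/Δ library carried the high values of all genes. The highest *Gli3*Δ/Δ value was in replicate 2 for 6 of the 9 genes, in replicate 3 for 2 and in replicate 1 for 1. Measured as log2 difference from the *Gli3*+/+ mean, replicate 2 stood at 0.63 for *Gli1*, 0.58 for *Gli2*, 0.50 for *Cdon* and 0.44 for *Smo*. Replicate 3 stood at 0.83 for *Hhip* and 0.53 for *Gas1* but at −0.71 for *Gli3*. *Gli3*Δ/Δ replicate 3 was thus highest in *Hhip* and *Gas1* and lowest in *Gli3* and *Cdon* of the 6 libraries.

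Within the GLI factors the balance of the transcripts can be read per library. *Gli3* made up 4.84%, 4.19% and 4.68% of the summed GLI level per kilobase in *Gli3*+/+ and 3.92%, 3.15% and 2.41% in *Gli3*Δ/Δ replicates 1 to 3. All *Gli3*Δ/Δ shares lie below the *Gli3*+/+ shares (4.57 ± 0.34 against 3.16 ± 0.758%, SD, n = 3 each). The ratio of *Gli1* to *Gli3* per kilobase was 7.53, 9.11 and 9.27 in *Gli3*+/+ and 11.7, 12.9 and 20.8 in *Gli3*Δ/Δ replicates 1 to 3. Of 7 ratios between these genes it was the 1 without overlap. The shares of *Gli1* (36.5% to 43.4% in *Gli3*+/+, 40.6% to 50.1% in *Gli3*Δ/Δ) and of *Gli2* (52% to 58.7% and 47.5% to 56.3%) overlapped. By exact two-sided permutation tests over the libraries, p was 0.1 for the *Gli3* share and for the ratio of *Gli1* to *Gli3*, the smallest that 3 against 3 libraries allow, and from 0.2 to 1 for the other 8 shares and ratios (0.333 to 1 after adjustment over the 10). Without *Gli3*+/+ replicate 3 the *Gli3* share and the ratio of *Gli1* to *Gli3* still did not overlap. The shares of *Gli1* (higher) and *Gli2* (lower) and the ratio of *Gli1* to *Gli2* (higher in *Gli3*Δ/Δ) then no longer overlapped. With 3 against 2 libraries 18.4% of genes of at least 5 CPM also had all *Gli3*Δ/Δ libraries above. The shares are parts of the same sum and the ratios reuse the same genes, so they are not separate results.

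The genes whose pattern over the 6 libraries came closest to each GLI factor were found by the root mean square difference of centred log2 CPM among the protein-coding genes of at least 10 CPM (9117 besides *Gli1* or *Gli2*, 9118 besides *Gli3*). For *Gli1* they were *Zfp772* (0.060), *Thsd4* (0.067) and *Mrps28* (0.076). For *Gli2* they were *Hlcs* (0.053), *Zeb1* (0.053) and *Parp3* (0.069). For *Gli3* they were *Gm38394* (0.098), *Gm42742* (0.100) and *Hunk* (0.102). With 6 libraries many genes come near, as 151 lay within 0.15 of *Gli1*, 201 of *Gli2* and 31 of *Gli3*. On leaving out *Gli3*+/+ replicate 3, the list of the closest 3 shared 0 genes with that above for *Gli1*, 2 for *Gli2* and 0 for *Gli3*, so the names for *Gli1* and *Gli3* depend on that library.

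Of the 55 other Hedgehog genes analysed, in 5 lists, 0 were called in either direction. The name is used loosely, since 7 of the 55 are zinc finger genes of the GLI type and not pathway members. A mean under 1 CPM was found for 11 of the 55, which limits what could be called. *Zic2* and *Zic5* were at 0 in all 6 libraries. The ligand gene *Shh* was not analysed here. The log2 fold change was above 0 for 29 and below 0 for 24 of them, with a median of 0.01, where 45% of all 25093 genes were above 0. An unadjusted p under 0.05 was reached by 3 of the 55 (*Dhh*, *Scube1* and *Grk2*), against 7.11% of all genes. Every *Gli3*Δ/Δ library lay above every *Gli3*+/+ library for 2 (*Hhat* and *Scube1*), against 6.39% of all genes, and below for 3 (*Dhh*, *Grk2* and the ciliary motor *Kif7*), against 6.57%. With *Gli3*+/+ replicate 3 left out, these counts were 3 above and 7 below, against 12.7% and 12.6% of all genes, and again 0 were called. Ligands and their release had a median log2 fold change of 0.12 over 8 genes, other receptor-side genes 0.08 over 12, genes between SMO and GLI 0.01 over 14, other zinc finger genes of the GLI type −0.04 over 7 and other GLI target genes −0.05 over 14.

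Among the ligand genes, *Dhh* was counted at 1.79, 1.69 and 1.86 CPM in *Gli3*+/+ and at 0.573, 0.761 and 1.2 CPM in *Gli3*Δ/Δ replicates 1 to 3. All *Gli3*Δ/Δ values lie below the *Gli3*+/+ values, with a log2 fold change of −1.07, a standard error of 0.35 and an adjusted p of 0.468 in edgeR. Schwann cells are a known source of *Dhh*. Of 6 Schwann cell markers, 5 had every *Gli3*Δ/Δ library below every *Gli3*+/+ library, against 6.57% of all genes, and 0 were called. Their summed level was 236 to 289 CPM in *Gli3*+/+ and 169 to 254 CPM in *Gli3*Δ/Δ libraries, and none was at 0. Without *Gli3*+/+ replicate 3 the *Gli3*+/+ sums were 246 to 289 CPM and still overlapped. Their part in the *Dhh* values was not tested.

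*Scube1*, of a family of secreted proteins that help release the ligand, had a log2 fold change of 1.16 with a standard error of 0.41 (adjusted p = 0.552, edgeR), at a level of 0.464 to 0.72 CPM in *Gli3*+/+ and 0.878 to 1.94 CPM in *Gli3*Δ/Δ libraries. *Hhat*, which attaches palmitate to the ligand, was at 6.18, 5.93 and 6.1 CPM in *Gli3*+/+ and 8.78, 7.19 and 6.75 CPM in *Gli3*Δ/Δ replicates 1 to 3 (adjusted p = 0.833, edgeR). *Disp1*, which releases ligand from the sending cell, had the highest level per kilobase of the ligand list, at 34.7 ± 6.61 and 36.7 ± 6.88 CPM (SD, n = 3 each).

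On the receptor side *Grk2*, a kinase that phosphorylates SMO, was counted at 123, 113 and 139 CPM in *Gli3*+/+ and at 103, 104 and 93.7 CPM in *Gli3*Δ/Δ replicates 1 to 3. The groups do not overlap, and the log2 fold change was −0.31 with a standard error of 0.13 (adjusted p = 0.677, edgeR). *Mgrn1*, a ubiquitin ligase that lowers SMO at the surface, was at 107 ± 13.5 and 103 ± 5.1 CPM (SD, n = 3 each).

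Between SMO and the GLI proteins the highest levels per kilobase were those of *Prkar1a*, a regulatory subunit of protein kinase A, and *Spop*, an adaptor for GLI degradation. *Prkar1a* was at 525 ± 62.3 and 529.9 ± 24.2 CPM and *Spop* at 221 ± 22.5 and 222 ± 16 CPM (SD, n = 3 each), with log2 fold changes of 0.01 and 0.01. The zinc finger genes *Glis2* and *Zic1* had the highest levels of their list, with log2 fold changes of 0.01 and −0.04. Among other GLI targets the highest levels per kilobase were those of *Vegfa*, a growth factor for blood vessels, and *Bmi1*, a Polycomb protein. Their log2 fold changes were −0.24 (standard error 0.18) and 0.06 (standard error 0.14), and neither was called.

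A view beyond QSCs comes from the authors' mean per gene, which is the same in their 4 comparison tables and so covers the libraries of all 4 groups. It is set against the mean of the 6 QSC libraries scaled by size factors fitted to those 6 alone, so the values were normalised separately. The 6 QSC libraries are themselves part of the authors' mean, which draws every ratio toward 1. A gene absent from ASCs would still have a ratio well above 0. The ratio is therefore not a fold change of ASCs over QSCs. For *Gli3* the authors' mean was 1124 against 495 in QSCs, a ratio of 2.27 that is higher than for 95.7% of the 11168 genes of at least 5 CPM. For the other 8 genes the ratio was below 1, from 0.48 for *Hhip*, 0.49 for *Gas1* and 0.51 for *Gli2* to 0.68 for *Ptch1* and 0.90 for *Smo*, where the median gene had 0.93. *Boc* was at 0.52, *Gli1* at 0.55 and *Cdon* at 0.58. Only 1.5% of the genes of at least 5 CPM had a lower ratio than *Hhip*. *Gli3* thus stood on the other side of 1 from the receptors, the co-receptors and the other GLI factors. On leaving out *Gli3*+/+ replicate 3, the ratio was 2.28 for *Gli3* and 0.45 to 0.87 for the other 8. These ratios have no replicate error and no test.

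**Figure D5:**
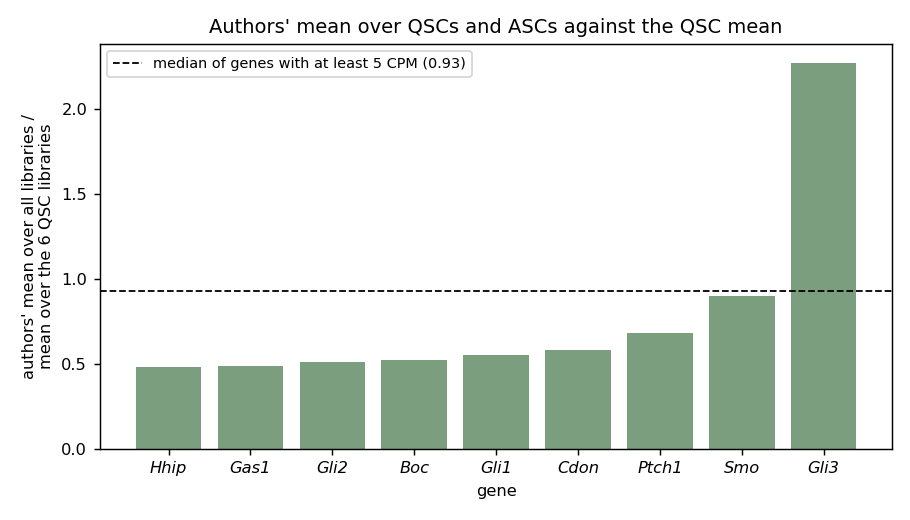
Ratio of the authors' mean over the libraries of all 4 groups to the mean of the 6 QSC libraries, 1 bar per gene from 0. The 6 QSC libraries enter both means. The dashed line at 0.93 marks the median gene of at least 5 CPM. *Gli3* reaches 2.27 and the other 8 genes lie between 0.48 and 0.90.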

How the data were processed

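RNA was counted in 12 libraries, of which the 6 QSC libraries were analysed here. The authors assigned reads of a strand-keeping kit to GRCm38 transcripts (GENCODE vM19) with salmon v0.13.1 and deposited estimated counts per gene, not normalized. Whether the strand setting of salmon was used is not given in the sources used here. The authors' comparison tables hold their shrunken log2 fold changes, errors and p-values, which were not used, and a mean signal per gene (counts divided by size factors), which was. A further 6 columns of per-sample counts matched no label and were not used.

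Of the values of a library, 34.2% to 39.1% lay more than 0.02 from a whole number. They were rounded and fitted in edgeR 4.0.16 (R 4.3.3; TMM, quasi-likelihood test, no further filter) over all 25093 genes, with Benjamini-Hochberg adjustment. Calls required an adjusted p below 0.05 together with a 1.2-fold difference. Other settings tried were the Wald test of DESeq2 1.42.0, voom with quality weights in limma 3.58.1, edgeR with the size factors of DESeq2, edgeR's own filter on expression, a minimum of 10 counts per library, a replicate block, calls without a fold limit, and the omission of each library. Omitting *Gli3*+/+ replicate 3 from levels, shares, ratios, marker sums and counts of genes without overlap was chosen after seeing the data. In simulated counts, where 200 of the 25093 genes differed, edgeR found 92% of 4-fold and 50% of 2-fold differences, with 7 false calls. DESeq2 found 96% and 55%, with 30 false calls. The simulated spread followed the trend over genes, and no simulated library stood apart, so recovery in the data may be lower. Differences under 2-fold were not simulated.

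The 9 genes and all lists were chosen with earlier results of these data known. Named are the 9, other Hedgehog genes with a call or an unadjusted p under 0.05, otherwise the 2 with the highest level per kilobase of each list, and the 3 genes most like each GLI factor. Positions and lengths come from GENCODE vM21, where 96.3% of gene identifiers have an unchanged version number, and the *Gli3* sequences from its transcripts. Replicates are pools of mice, and p-values measure the spread between these libraries. Results for some genes of the lists are not reported here.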

Additional observations from a re-analysis of the deposited data

How the results depend on the processing

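Over the 9 genes and 12 alternative settings, 97 of 108 fits kept the direction and the side of the threshold, 10 turned the direction of a log2 fold change near 0 and 1 passed the threshold. With DESeq2, 1 of the 9 genes was called, *Gli1*, at 0.52. In every other setting 0 of the 9 and 0 of the other Hedgehog genes were called. Over all genes 88 were called, against 384 with DESeq2, 48 with at least 10 counts in every library, 73 with limma-voom, 79 with the replicate number as a block, and 58 to 103 with 1 library left out, the lowest being without *Gli3*Δ/Δ replicate 3. The cause of these differences was not tested. The sign turned for *Cdon* with limma-voom (−0.05), with the replicate block (−0.02) and on leaving out *Gli3*+/+ replicate 2 (−0.04), *Gli3*+/+ replicate 3 (−0.06) or *Gli3*Δ/Δ replicate 2 (−0.29). It turned for *Boc* without *Gli3*+/+ replicate 1 (−0.11), *Gli3*+/+ replicate 2 (0.00) or *Gli3*Δ/Δ replicate 2 (−0.02), for *Gli2* without *Gli3*Δ/Δ replicate 2 (−0.03) and for *Gas1* without *Gli3*Δ/Δ replicate 3 (−0.11). With 1 library left out the log2 fold change thus ran from −0.29 to 0.18 for *Cdon*, −0.11 to 0.23 for *Boc*, −0.03 to 0.31 for *Gli2* and −0.11 to 0.32 for *Gas1*. Same-numbered libraries of the groups did not deviate together (correlations of −0.28, −0.02 and −0.06 over 14696 genes). With 3 libraries a group this cannot tell whether same-numbered pools were collected or handled together. The median standard error of a log2 fold change was 0.17 among genes of at least 5 CPM, which limits what 3 libraries a group can tell apart.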
